A study of Rattus norvegicus with 4 samples.

Results

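The enzymes that build, lengthen and desaturate fatty acids were followed in the livers of rats that had drunk thiamine for most of their lives. The genes of the set were chosen by name. No measured value entered the rule, but earlier results of these data were known. The set holds 10 genes: Acly, Me1, Acaca, Fasn, Elovl5, Elovl6, Scd, Fads1, Fads2 and Srebf1. Of these, 9 had at least 1 probe of their own among the 33849 gene probes of the array, 13 probes in all, and 8 had a probe that passed the filter on dim signals. Elovl6 was near background and Srebf1 had no probe of its own. No member passed the test. The members whose groups did not overlap were the desaturase Fads2, on its brighter probe, and the elongase Elovl5. Fads2 was 1.58-fold higher in the thiamine livers on that probe, and its other kept probe had overlapping groups. Elovl5 was at 0.675 times the level of the untreated livers (each n = 2 per group). Fads2 and Elovl5 are 2 of the 8 measured members, or 25%. Of all probes that passed that filter, 36.1% had groups that did not overlap. The core synthesis genes Acly, Me1, Acaca and Fasn, with Scd and Fads1, overlapped between the groups.

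The samples were 4 livers of male OLETF (Otsuka Long-Evans Tokushima Fatty) rats, whose RNA was hybridised to 1-colour CodeLink arrays, 1 rat per array with no pooling. The 2 thiamine rats drank water with 0.2% thiamine, or 2 g per L, for 51 weeks, and the 2 untreated rats drank water with 0% thiamine over the same time. All 4 were 55 weeks old, ate standard chow and were killed after 16 h without food. OLETF rats overeat and become obese and diabetic because they lack a working cholecystokinin A receptor, so the untreated rats are an obese group and not a healthy one, and no lean strain is among these samples. Each group of the study numbered 8 rats, and arrays were run for 2 of them, so that the number of animals limits the precision.

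New fatty acids are made in the cytosol of the hepatocyte. Acly cuts citrate into acetyl-CoA, Acaca carboxylates this to malonyl-CoA, Fasn joins the units into palmitate and Me1 supplies part of the NADPH that Fasn uses. Elongases such as Elovl6 and Elovl5 then lengthen the chain and desaturases such as Scd, Fads1 and Fads2 add double bonds. Most of these genes are switched on by insulin through the transcription factor encoded by Srebf1, and in a normal liver they are low during a fast. Thiamine, vitamin B1, is the precursor of the cofactor of pyruvate dehydrogenase, which feeds the citrate that Acly uses.

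Between 18176 and 20071 gene probes per array were above background, and 18664 were kept for the test because both arrays of at least 1 group were above background. All 8 hepatocyte markers but Ttpa, which had no named probe, were measured, but the spots of Alb, Ttr, Tf and Serpina1 were saturated on all 4 arrays and give no direction. Of the other 3, Cps1 was higher and Apoa1 and Hnf4a were lower. Markers of Kupffer cells, the resident macrophages, were higher in 8 of 8 measured genes with a median difference of 0.64 on the log2 scale, though none passed the test (limma, lowest adjusted p = 0.33). Of these 8 genes 6, or 75%, had an unadjusted p under 0.05 in limma, against 6.75% of all kept probes. For 5 of the 8, or 62.5%, the groups did not overlap, as higher, against 17.8% of all kept probes. Their summed signal was 28622 and 19948 in the thiamine livers, against 19529 and 12547 in the untreated livers. The 5 measured endothelial markers were all higher too, with sums of 5413 and 4796 in the thiamine livers and 3593 and 3599 in the untreated livers. For 4 of them, or 80%, the groups did not overlap, and none passed the test. Of 6 adipocyte markers 2 were measured, Cidec and Cfd, and both were higher, with sums of 12177 and 11229 in the thiamine livers and 7065 and 10388 in the untreated livers. Most of each sum came from Cidec, so the sums mainly follow 1 gene. The defining adipocyte genes Adipoq and Lep were not well above background on both arrays of either group. Stellate cell markers were higher in 3 and lower in 1 of 4, and bile duct markers in 1 each. In whole liver RNA, fewer cells of a type and less RNA per cell cannot be told apart, and the part of these markers in the values below was not tested.

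Acly, the source of cytosolic acetyl-CoA, was at 11.18 and 10.75 in thiamine rats 1 and 2 and at 10.69 and 11.29 in untreated rats 1 and 2. These and all levels below are log2 of the background-corrected, quantile-normalised intensity of a probe and are compared between rats for the same probe only. Each group had 1 high and 1 low rat, and the groups overlapped over most of their range. The difference, thiamine less untreated, was -0.03 ± 0.24 (log2, moderated SE, n = 2 per group), with a 95% interval of -0.55 to 0.50. In scanner units Acly stood at 2467 and 1754 in the thiamine livers and at 1468 and 2327 in the untreated livers, after local background was subtracted. Its direction depended on which rats were counted. Leaving out rat 2 of the thiamine or the untreated group gave 0.19 or 0.28, and leaving out rat 1 of the thiamine or the untreated group gave -0.24 or -0.33.

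The malic enzyme Me1 had the narrowest range over the 4 rats among the 8 measured members, 0.17 on its brighter probe. That probe was at 10.12 and 10.16 in the thiamine rats and at 9.999 and 10.16 in the untreated rats, a difference of 0.06 ± 0.18. The interval ran from -0.34 to 0.46. The dimmer probe of Me1 was at 8.63 and 8.50 in the thiamine rats and at 8.40 and 8.85 in the untreated rats. Its difference of -0.06 ± 0.20 had the opposite sign, the signal of thiamine rat 1 carried a contamination flag, and the direction turned to 0.01 when thiamine rat 2 was left out and to 0.16 when untreated rat 2 was. That of the brighter probe was -0.02 without untreated rat 1.

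Acaca, acetyl-CoA carboxylase 1, makes the malonyl-CoA that both synthesis and elongation consume. Its kept probe read 11.18 and 11.02 in the thiamine livers and 11.29 and 11.14 in the untreated livers. The rats of each group differed by about as much as the groups did, and the thiamine range overlapped the untreated one by 0.03. The difference was -0.12 ± 0.18 with an interval of -0.52 to 0.29. A second Acaca probe was near background in all 4 livers, at 45.8 and 81.6 scanner units in the thiamine livers and at 77.9 and 81.2 in the untreated livers, and was not used.

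Fasn, the multifunctional fatty acid synthase, had the widest spread of the members. It was at 10.94 and 9.99 in thiamine rats 1 and 2, against 10.36 and 11.28 in untreated rats 1 and 2. The lowest liver was a thiamine one and the highest an untreated one, but the other thiamine liver lay above the other untreated liver, by 0.58, so the groups overlapped. Within the thiamine pair the gap of 0.95 was exceeded by 0.482% of the kept probes, and within the untreated pair the gap of 0.92 by 1.84%. Over all kept probes the median gap was 0.161 in the thiamine pair and 0.225 in the untreated pair. The difference of Fasn was -0.36 ± 0.33 with an interval of -1.10 to 0.38. Its SD was 0.67 in the thiamine pair and 0.65 in the untreated pair. Moderation made the SE smaller than these rats alone would give. Leaving out rat 1 of the thiamine or the untreated group gave -0.84 or -0.82, and leaving out rat 2 of the thiamine or the untreated group turned it to 0.12 or 0.10.

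Fasn and Acly were higher in rat 1 than in rat 2 of the thiamine group and higher in rat 2 than in rat 1 of the untreated group. Acly had gaps of 0.43 in the thiamine pair and 0.60 in the untreated pair. Of the 8 measured members 3 had this order of rats, the last of them Elovl5, and of all kept probes 25.3% had it, so the order itself does not set these genes apart. The replicate numbers carry no stated pairing between the groups.

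**Figure D1:**
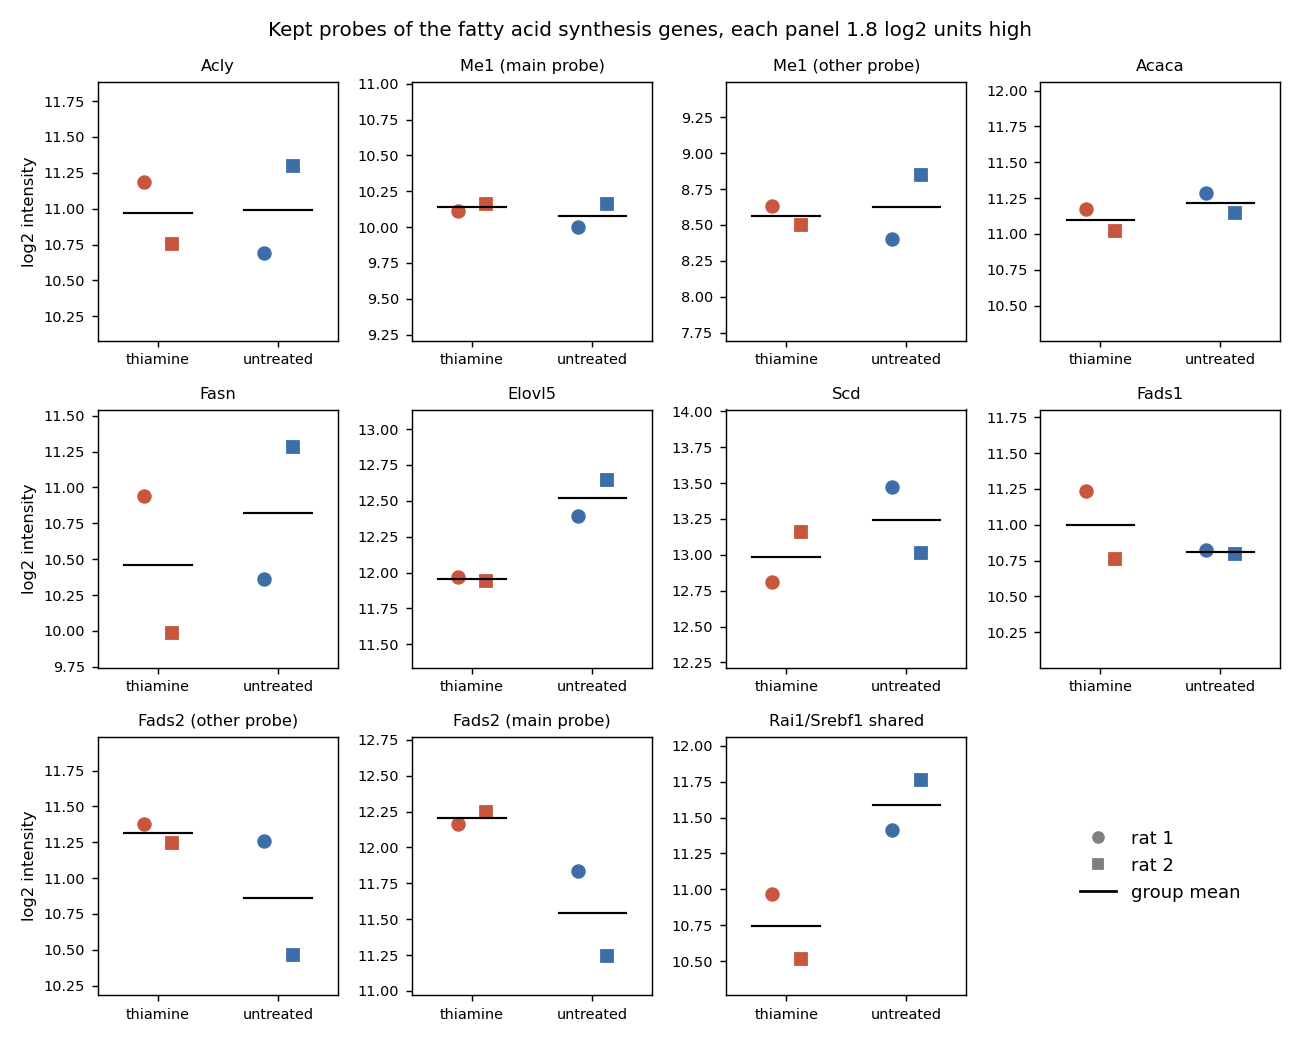
Log2 intensity (vertical axis, every panel spanning the same range) of each kept probe of the members and of the probe shared by Rai1 and Srebf1 in the thiamine rats (left) and the untreated rats (right). Circles are rat 1, squares rat 2 and lines the group means. Elovl5, the main Fads2 probe and the shared probe show groups that do not overlap, and Fasn shows a wide spread in both groups.

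Elovl5 lengthens polyunsaturated chains between the steps of Fads2 and Fads1. Its probe was at 11.97 and 11.94 in the thiamine livers, against 12.40 and 12.64 in the untreated livers. Both thiamine rats lay below both untreated rats, with 0.43 between the nearest of them, while the thiamine rats themselves differed by 0.03. The difference was -0.57 ± 0.18 with an interval of -0.97 to -0.16. In limma the unadjusted p was 0.011 and the p adjusted over all kept probes was 0.50, so it did not pass. The spot of untreated rat 1 carried a contamination flag, and without flagged spots the difference was -0.68. It ranged from -0.69 to -0.44 when 1 rat was left out, and of the kept probes 3.54% had a larger difference in either direction.

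Elovl6, which lengthens palmitate to stearate, was listed by 2 probes, and both were near background on all 4 arrays. One read 87.0 and 35.6 scanner units in the thiamine livers and 75.2 and 51.3 in the untreated livers. The other read 39.7 and 53.7 in the thiamine livers and -2.23 and 36.0 in the untreated livers, the value below 0 meaning a spot dimmer than its surroundings. Neither probe gives a level for this gene, and no difference is given.

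Scd, the stearoyl-CoA desaturase of liver, makes monounsaturated chains. It was at 12.81 and 13.16 in the thiamine livers and at 13.47 and 13.01 in the untreated livers. The upper thiamine rat lay above the lower untreated rat, by 0.15. The difference was -0.26 ± 0.22 with an interval of -0.73 to 0.22, and it ranged from -0.49 without untreated rat 2 to -0.03 without untreated rat 1.

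Fads1, the delta-5 desaturase, was at 11.23 and 10.76 in thiamine rats 1 and 2 and at 10.83 and 10.80 in the untreated rats. Thiamine rat 1 stood alone above the other 3, which lay close together. The difference of 0.18 ± 0.20 had an interval of -0.26 to 0.63 and rested on that rat, being -0.05 without it. It was 0.42 without thiamine rat 2.

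Fads2, the delta-6 desaturase that opens the pathway from linoleic acid to longer polyunsaturated acids, was read by 2 kept probes. The brighter was at 12.16 and 12.25 in the thiamine livers, against 11.84 and 11.24 in the untreated livers. Both thiamine rats lay above both untreated rats, by at least 0.32, and the thiamine rats were closer to each other than the untreated rats were. In scanner units it read 4918 and 4965 in the thiamine livers and 3328 and 2241 in the untreated livers. The difference was 0.66 ± 0.22, a 1.58-fold higher level, with an interval of 0.18 to 1.15. In limma the unadjusted p was 0.011 and the p adjusted over all kept probes was 0.51, so it did not pass either. The size depended on untreated rat 2: the difference was 0.37 without it and 0.96 without untreated rat 1, whose spot carried a contamination flag. Of the kept probes 2.13% had a larger difference in either direction.

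The second Fads2 probe was at 11.38 and 11.24 in the thiamine livers and at 11.26 and 10.46 in the untreated livers. Here thiamine rat 2 lay 0.01 below untreated rat 1, so that the groups just overlapped, and untreated rat 2 was again the lowest of the 4. Its difference was 0.45 ± 0.25 with an interval of -0.09 to 1.0 (limma, adjusted p = 0.81). Both probes thus gave a positive difference, and both were nearest 0 without untreated rat 2, where the second probe was at 0.06. Fads1 and Fads2 lie near each other in the genome, with 2 annotated genes between them, and for Fads1 the untreated rats did not differ in this way, their gap being 0.03.

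The promoters of Fads2 and Elovl5 are shown because these were the members whose groups did not overlap on their main probe, in opposite directions. Sequences are the 250 bases before the start in RefSeq's GRCr8 assembly, 5′ to 3′ on the strand of the gene, with motif matches in capitals. The Fads2 window is chr1:216172034-216172283 on the minus strand, of which 157 bases fall inside the annotated extent of the gene, as this reaches upstream of the start used. The Elovl5 window is chr8:87670914-87671163 on the plus strand and lies wholly outside the annotated gene.
Fads2: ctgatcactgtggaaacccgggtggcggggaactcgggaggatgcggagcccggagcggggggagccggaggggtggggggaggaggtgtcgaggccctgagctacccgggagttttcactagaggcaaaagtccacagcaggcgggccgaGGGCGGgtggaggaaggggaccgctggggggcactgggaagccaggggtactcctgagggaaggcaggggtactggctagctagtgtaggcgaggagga
Elovl5: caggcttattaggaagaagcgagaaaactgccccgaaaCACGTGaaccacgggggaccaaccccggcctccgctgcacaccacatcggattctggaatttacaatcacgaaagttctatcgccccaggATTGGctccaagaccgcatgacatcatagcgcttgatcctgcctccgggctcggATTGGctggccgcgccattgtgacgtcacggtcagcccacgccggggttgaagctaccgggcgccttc
The motifs searched on both strands were the sterol regulatory element TCACNCCAC, bound by the Srebf1 product, the E-box CACGTG, the CCAAT box CCAAT and the GC box GGGCGG. The Fads2 window held 1 GC box, which begins 99 bases before the start. The Elovl5 window held 1 E-box at 212 bases and CCAAT boxes, read on the other strand, at 122 and 68 bases before the start. Of 33469 windows of the same length, 0.974% held the sterol element, 5.59% the E-box, 34% the CCAAT box and 30.5% the GC box. None of the 8 windows of the 7 members found in the promoter table (Acly, Me1, Elovl5, Scd, Fads1, Fads2 and Srebf1, the last with 2 windows) held the sterol element in these letters. The Acly and Scd windows and the second Srebf1 window lie wholly inside the annotated extent of their gene, and 87 bases of the Fads1 window do. These windows need not hold the promoter at the outermost annotated start. A match is a string of letters and not a measured site.

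Srebf1, the regulator of the pathway, could not be read alone. The platform annotation lists it on 1 probe together with its neighbour Rai1, a chromatin-associated regulator, and the signal of that probe cannot be given to either gene. The shared probe was at 10.97 and 10.52 in the thiamine livers, against 11.41 and 11.76 in the untreated livers. Both thiamine rats lay below both untreated rats, by at least 0.45. The difference was -0.85 ± 0.21 with an interval of -1.32 to -0.37 (limma, unadjusted p = 0.0024, adjusted p = 0.30), and it did not pass. It ranged from -1.07 to -0.62 when 1 rat was left out, and of the kept probes 0.852% had a larger difference in either direction.

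**Figure D2:**
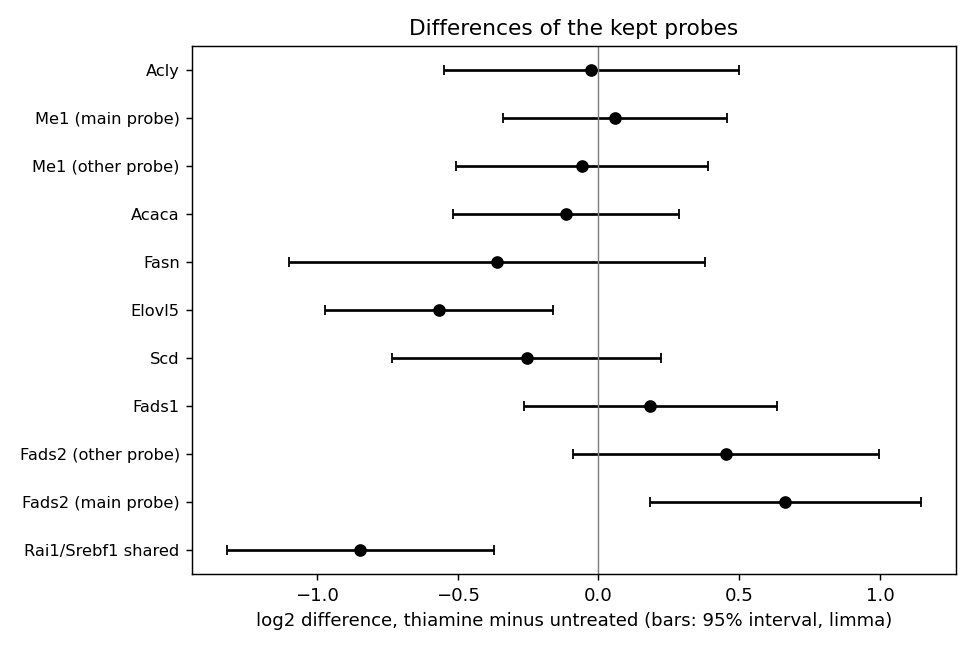
Difference of each kept probe, thiamine less untreated, in log2 units, with its 95% interval from limma. The intervals of Elovl5, the main Fads2 probe and the shared probe of Rai1 and Srebf1 leave out 0, and those of the other 8 probes include it. The intervals are not adjusted for the number of probes.

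As a group the 8 measured members did not lean one way. The thiamine livers were higher for 3 of them and lower for 5. The median difference was -0.07, against 0.01 over all 18664 kept probes. It turned to 0.08 when thiamine rat 2 was left out and to 0.12 when untreated rat 2 was, with 5 of the 8 higher in each case. None passed at an adjusted p under 0.05 in limma, where 0% of all kept probes passed. Fads2 in the upward and Elovl5 in the downward direction, 2 of the 8, had an unadjusted p under 0.05, a mark that 6.75% of all kept probes met, 3.81% as higher and 2.94% as lower. The same 2 were the members whose groups did not overlap, which held for 36.1% of all kept probes, 17.8% higher and 18.3% lower. The second Fads2 probe met neither mark. The adjusted p of the members lay between 0.50 and 0.99. A p that misses the threshold does not show that the levels were alike: the intervals of Acly, Acaca, Fasn and Scd reach beyond 0.5 in the negative direction, and that of Fads1 beyond 0.5 in the positive direction.

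**Figure D3:**
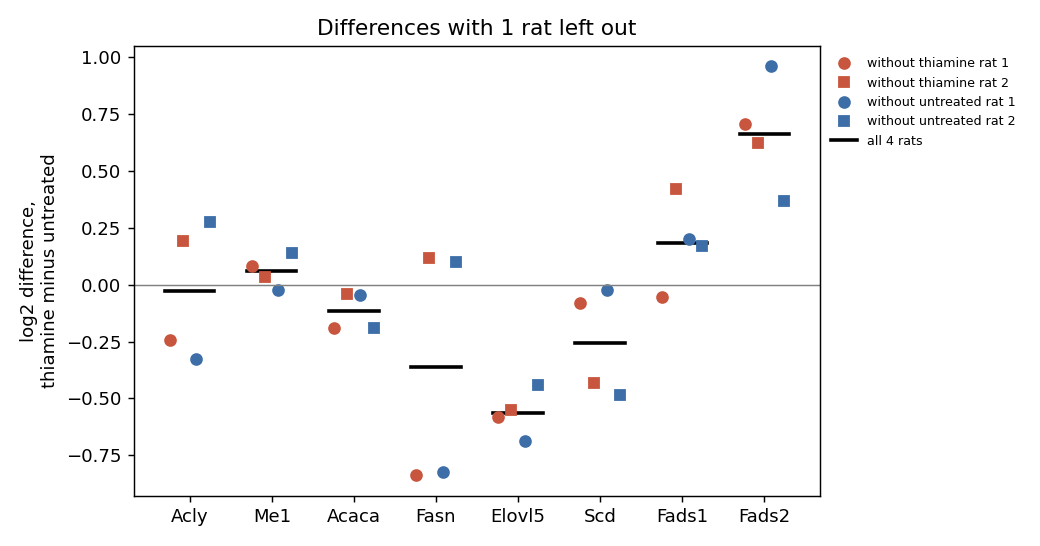
Difference of each measured member, thiamine less untreated, in log2 units, with all 4 rats (black bars) and with 1 rat left out (red for a thiamine rat, blue for an untreated rat, circles for rat 1 and squares for rat 2). Elovl5 stays below 0 and Fads2 above 0 in all 4 cases, while Acly, Me1, Fasn and Fads1 have values on both sides of 0.

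Other genes of the pathway were listed by role. Of 41 genes 36 had a named probe and 31 were measured. The median difference of these was -0.04, with 12 above 0 and 19 below. It was -0.05 without thiamine rat 1, -0.13 without thiamine rat 2, -0.11 without untreated rat 1 and -0.03 without untreated rat 2. With all kept probes of a gene averaged, the median was -0.01. None of the 31 genes passed (limma, lowest adjusted p = 0.705). Tecr, the reductase of the last step of each elongation cycle, was the 1 gene at an unadjusted p under 0.05, 3.23% of the 31, where 6.75% of all kept probes met that mark. It was at 12.16 and 12.02 in the thiamine livers, against 11.43 and 11.83 in the untreated livers, a difference of 0.46 ± 0.20. The groups did not overlap for 3 genes that were higher, 9.68% of the 31, and 9 that were lower, 29%, where 17.8% of all kept probes had groups apart as higher and 18.3% as lower. Among the lower genes, Mcat, Nr1h2 and Pnpla3 each had another kept probe above 0, at 0.06, 0.17 and 0.33. The other kept probes of Oxsm and Mbtps1 were below 0. The direction of Mcat, Nr1h2 and Pnpla3 thus depends on the probe that stands for the gene. Over the list the split moved little: 13 of the 31 genes were higher with all kept probes averaged, against 12. The split was not tested.

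By role, the other 2 measured elongation genes were also higher, Hsd17b12, the ketoacyl-CoA reductase, by 0.23 ± 0.20 and the dehydratase Hacd3 by 0.05 ± 0.18. A dimmer kept probe of Hacd3 was higher by 0.37 ± 0.21. The elongases Elovl2, Elovl3 and Elovl7 had a probe that did not pass the filter. Among genes of substrate supply the citrate carrier Slc25a1 was at -0.37 ± 0.19, the mitochondrial carboxylase Acacb at -0.37 ± 0.20 and the acetyl-CoA synthetase Acss2 at 0.25 ± 0.21. The genes of mitochondrial synthesis and chain release, Mcat, Oxsm and Olah, were at -0.29, -0.24 and -0.01. Mlycd, which removes malonyl-CoA, was at -0.12 ± 0.20. None of these passed the test.

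Cytochrome b5 (Cyb5a) and its reductase Cyb5r3, which pass electrons to the desaturases, were at 0.03 ± 0.18 and -0.15 ± 0.18, and Fads3, a relative of Fads1 and Fads2, was at -0.44 ± 0.24. Of the acyl-CoA synthetases Acsl1 was at -0.01, Acsl4 at 0.24 and Acsl3 at 0.23. Pgd, an NADPH-making enzyme of the pentose phosphate pathway, was at -0.16 ± 0.20. Of 12 measured regulators 4 were higher and 8 lower. Thrsp, a small protein that rises with lipogenesis, was at -0.17 ± 0.25, and the membrane anchors Insig1 and Insig2, which hold the Srebf1 product in the endoplasmic reticulum, were at 0.13 ± 0.28 and -0.04 ± 0.30. Pnpla3, a lipid droplet protein induced by feeding, was at -0.45 ± 0.21 on a probe that was above background in 1 of the 2 thiamine livers. Its other kept probe had the opposite sign and was not well above background in either untreated liver, so no direction is given for this gene. Of 11 genes of the list with several kept probes, 6 had all of them on the same side of 0, and Mcat, Acsl1, Nr1h2, Insig2 and Pnpla3 did not.

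**Figure D4:**
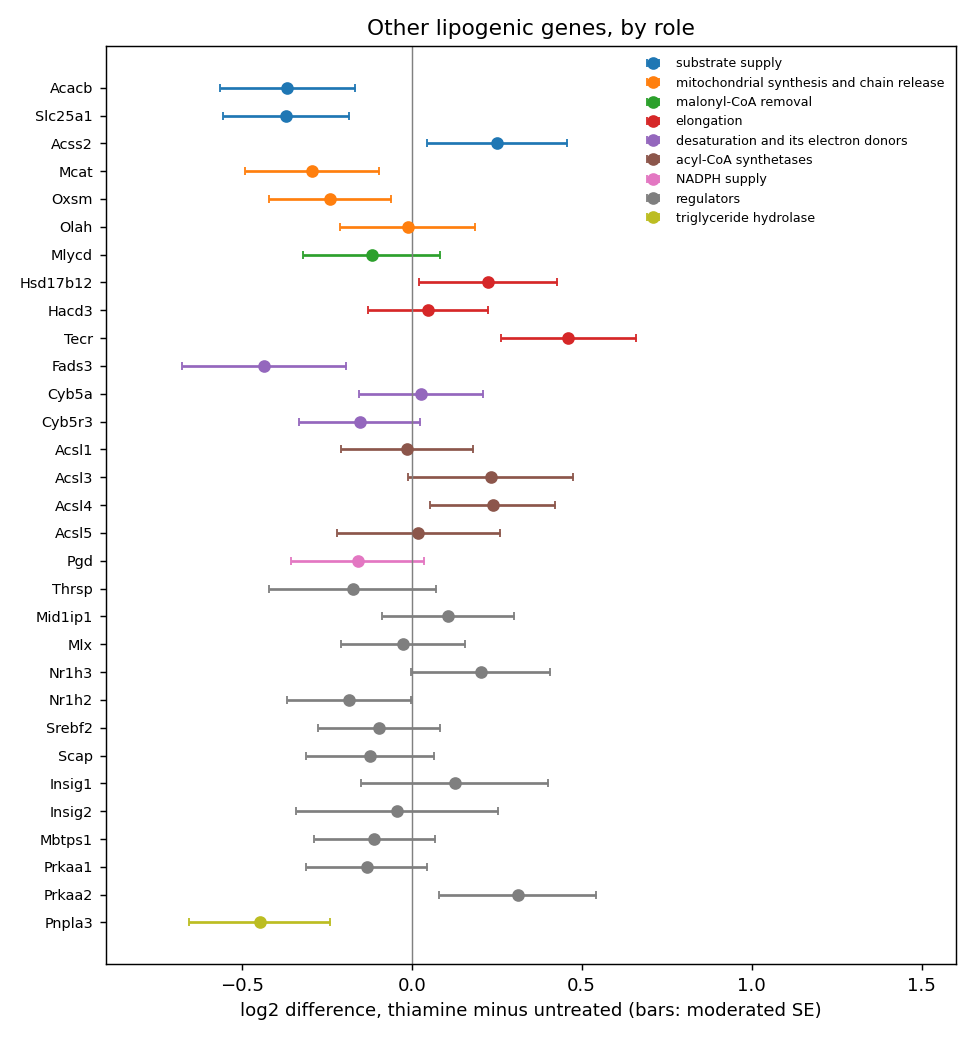
Difference of the 31 measured genes of the wider list, thiamine less untreated, in log2 units, coloured by role, with the moderated SE as bars. The differences lie between -0.45, for a Pnpla3 probe whose partner has the opposite sign, and 0.46, for Tecr, and fall on both sides of 0.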

How the data were processed

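The 4 reports of 1-colour CodeLink rat arrays, 1 rat liver each, come from the CodeLink Expression Analysis software, version 5.0.0.31312, per the file headers. They hold spot mean, local background and their difference as intensity on a linear scale, not normalized, with a quality flag. The deposited value table holds intensity values with column medians of 147.4829 to 147.5063 and keeps the order of the scanner values (Spearman's rho of 1). The sources used here do not state how the authors made it, and it served as an alternative.

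Background was corrected with normexp (offset 50), and the gene probes were quantile normalised on the log2 scale. Contaminated spots, 1.49% to 7.49% of an array, were kept. Groups were taken from the labels and compared by limma's lmFit and eBayes (limma 3.58.1, R 4.3.3), two-sided, with p adjusted by Benjamini-Hochberg over the 18664 probes kept. SEs are moderated. The fit was tested on simulated data with independent noise for each array, which cannot check the effect of shared cages or batches. Rats were kept 2 to a cage, and nothing in the labels says that the rats of a group came from separate cages. The p-values therefore rest on the spread between rats, moderated as above, and not on a spread between cages. If the 2 rats of a group shared a cage, cage and treatment cannot be told apart. Probes were named from the platform annotation, with symbols brought up to date by gene identifier in the GRCr8 RefSeq table: 16740 probes had 1 symbol, 165 several, 367 were named through an accession, 13 had conflicting sources and 16564 have no name here. The brightest kept probe stands for a gene. Of the wider list, genes at an unadjusted p under 0.05 and the 3 brightest others per role were named. One gene of the wider list is not reported here and is left out of its counts. The members, lists and rules were chosen with earlier results of these data known. Alternatives changed the background correction, offset, scaling, filter, flagged spots, values, block, moderation and probe, or left out 1 rat. Each array is on a slide of its own and no scan date was used, so no batch could be tested.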

Additional observations from a re-analysis of the deposited data

How the results depend on the processing

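With all 4 arrays, the members kept their direction in 80 of 80 cases under the alternatives, and none passed the threshold where a p was computed. The mean over a gene's kept probes was judged by direction alone, and for a gene with 1 kept probe it repeats the main value. The changes of filter, block and moderation leave the difference itself as it was. Those cases could not turn the sign, so the count says little about direction. With 1 array left out, 26 of 32 cases kept their direction. The other 6 turned sign: Acly at 0.19 and 0.28, Fasn at 0.12 and 0.10 (each without thiamine replicate 2 and without untreated replicate 2), Me1 at -0.021 without untreated replicate 1 and Fads1 at -0.052 without thiamine replicate 1. So did the dimmer Me1 probe, over a range of -0.28 to 0.16, with 0.0097 without thiamine replicate 2. The lowest adjusted p of a member was 0.097, for Fads2 without untreated replicate 1 (limma), and over its alternatives it reached 1.0. Left-out arrays gave -0.33 to 0.28 for Acly, -0.021 to 0.14 for Me1, -0.19 to -0.04 for Acaca, -0.84 to 0.12 for Fasn, -0.69 to -0.44 for Elovl5, -0.49 to -0.03 for Scd, -0.052 to 0.42 for Fads1 and 0.37 to 0.96 for Fads2. The median of the members ran from -0.14 to 0.12 with 2 to 5 of 8 higher, and that of the wider list from -0.13 to -0.030. Over all kept probes, limma called 0 and between 1 and 65 with 1 array left out, where the remaining rat of a group is taken to vary as the other group does. With the replicate block it called 126, none of them a member. The labels give the numbers no shared meaning, and the deviations of same-numbered rats correlated at -0.074, so no pairing stands behind this count. The cause of these shifts was not tested. With 2 rats per group, and spots near background for Elovl6, small differences could not be detected.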
